A study of Macaca mulatta with 16 samples.

Results

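The regions described here are stretches of the rhesus macaque genome that were open in CD8+ T cells of both the memory and the naive state, and mostly without a peak in CD4+ T cells. They were found by ATAC-seq, in which a transposase inserts sequencing adapters into DNA that is not wrapped up by nucleosomes, so that accessible DNA appears as peaks of fragments. Peaks of all 16 deposited lists that shared at least 1 base were joined, which gave 55449 regions, each called open in a library where a peak fell in it. The CD8 lineage regions are the 377 of these that were open in at least 7 of the 8 CD8+ libraries and in at most 1 of the 8 CD4+ libraries. The difference between the lineages therefore chose them and is given only as a description.

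The 16 libraries came from peripheral blood of 2 rhesus macaques, called animal 1 and animal 2 here. Memory CD8+, naive CD8+, memory CD4+ and naive CD4+ T cells were sorted from each animal after and before treatment, which gives 8 groups of 2 libraries. The animals received 2-hydroxypropyl-beta-cyclodextrin, a cyclic oligosaccharide able to take up cholesterol and to keep it in solution, as a 15% (w/w) solution under the skin at 1 ml per kg and day for up to 120 days. Libraries labelled as before had no treatment, and no group of untreated animals sampled again at the later time was analysed here, so the treatment and the time that passed cannot be told apart. Each library was made from 10000 sorted cells, per the labels' protocols, and the 2 animals are the only biological replicates.

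CD8+ T cells recognise peptides on MHC class I and can kill the cells that present them, while CD4+ T cells recognise peptides on MHC class II and mostly help other immune cells. Both arise from one precursor in the thymus, and once the choice is made each lineage keeps its own enhancers and silencers open or closed through later divisions. Naive cells have not met their antigen, whereas memory cells have, and memory CD8+ cells hold effector genes ready for use. In sorted populations like these, fewer cells with an open region and less opening per cell cannot be told apart.

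The lists held 36307 to 42034 peaks. Read depth behind them is unknown, and a peak's area score is the authors' value for that peak in its own list. No gene annotation or genome of the build of the files, rheMac10, was used, so regions are named by position and neither genes nor sequences are given, and the labelled cell types could not be checked against marker genes. The CD8 lineage regions lay on all 20 autosomes and on X.

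Between 342 and 372 of the 377 CD8 lineage regions were open in each CD8+ library, and between 3 and 27 in each CD4+ library. Of the 377, 206 were open in all 8 CD8+ libraries and in no CD4+ library. Another 56 were open in all 8 CD8+ libraries and 1 CD4+ library, 84 in 7 CD8+ libraries and none of the CD4+ libraries, and 31 in 7 CD8+ libraries and 1 CD4+ library. In strength, the regions lay mostly below the middle of their own CD8+ lists. Their median percentile of area score within a CD8+ list was 37.0 for the 206, 35.2 for the 56, 27.3 for the 84 and 24.5 for the 31, so strength was lowest closest to the threshold. Just outside it, 230 regions open in 6 CD8+ libraries and at most 1 CD4+ library had a median percentile of 29.3, and 128 regions open in 7 or 8 CD8+ libraries and 2 CD4+ libraries had one of 32.0. These values lie among those just inside, so the threshold cuts through a continuum.

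CD8 lineage regions had a median width of 1320 bp (quartiles 1022 and 1917, range 594 to 5684), against 1072 bp for the 534 CD4 lineage regions chosen by the mirror rule, 2229 bp for the 24333 regions open in all 16 libraries and 1241 bp for all regions. The regions shared by every library were thus wider than those of either lineage. A region spans all the peaks joined in it, so peaks from more lists can widen it. The difference in width therefore follows in part from how regions were made.

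Strength could be compared between CD8+ libraries for the 262 CD8 lineage regions that were open in all 8 of them. For this, the area scores of the peaks in a region were summed and the sum was ranked within each library among the same 25732 regions, those open in all 8 CD8+ libraries. The rank is given as a percentile from 0 to 100, so 90 means that 90% of these regions had a lower summed score in that library. A percentile says where a region stands among the others and not how much DNA was open. Values of 4 libraries of a state are given with the pair after treatment first and the pair before it second, and within a pair animal 1 stands before animal 2.

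Most CD8 lineage regions sat in the lower part of this ranking in every library. The median percentile of the 262 was 27.0 and 23.9 in memory libraries after treatment and 23.8 and 26.2 in memory libraries before it. In naive libraries it was 15.4 and 10.05 after treatment and 16.2 and 12.7 before it. All 4 memory medians lay above all 4 naive medians. Averaged over the 8 libraries, 165 regions had a mean percentile below 25, 84 one from 25 to 50, 10 one from 50 to 75 and 3 one of 75 or more (median 19.3, range 1.99 to 88.2).

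**Figure D1:**
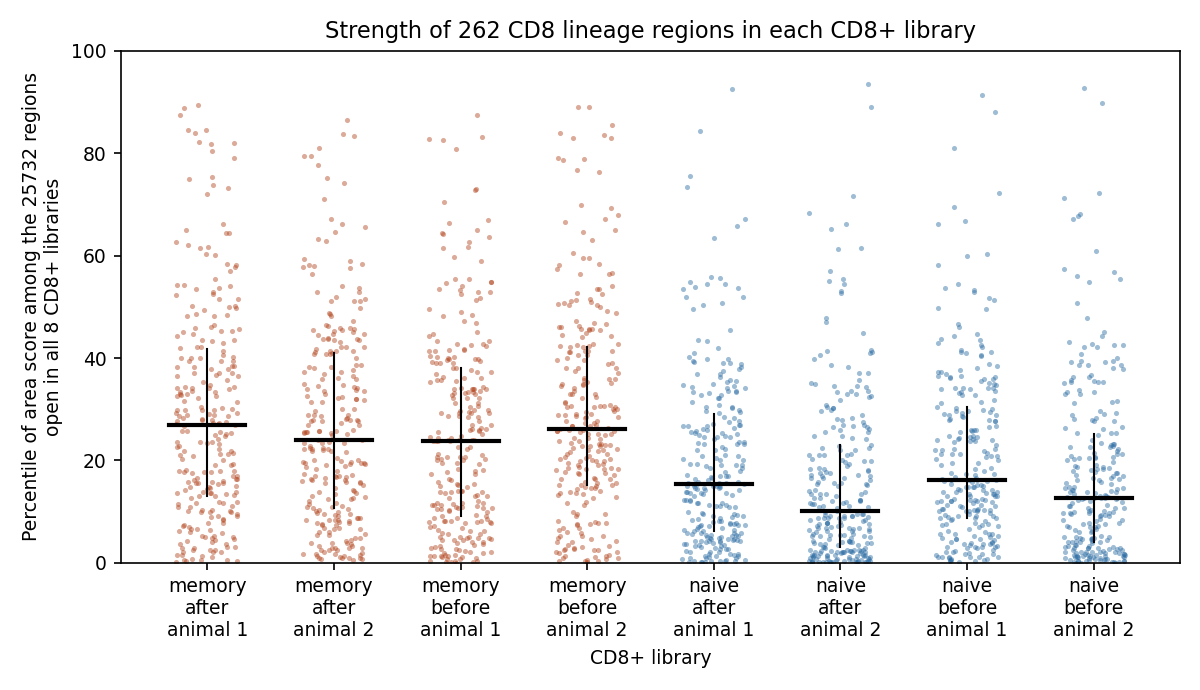
Percentile of summed area score (vertical axis, 0 to 100, ranked among the 25732 regions open in all 8 CD8+ libraries) of each of 262 CD8 lineage regions (points) in each CD8+ library (horizontal axis), with the median as a thick bar and the quartiles as a thin line. Medians run from 23.8 to 27.0 in the memory libraries (red) and from 10.05 to 16.2 in the naive libraries (blue), and the lowest is the naive library of animal 2 after treatment.

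The strongest CD8 lineage region open in no CD4+ library was chr7:27565598-27571281, 5684 bp wide, with a mean percentile of 88.2. It had percentiles of 89.3, 83.7, 73.0 and 89.0 in the memory libraries and 92.6, 93.5, 91.4 and 92.8 in the naive libraries. Every memory library lay below every naive library there, but the difference did not pass the test between states given below (limma, adjusted p = 0.101). The second, chr13:19023326-19027550, had 82.1, 83.3, 83.2 and 83.0 in the memory libraries and 84.4, 89.0, 87.9 and 89.8 in the naive libraries, so none of its 8 values lay below 82.1. The third was chr11:9353139-9357692, with 87.5, 75.2, 82.7 and 84.0 in the memory libraries and 75.6, 71.6, 80.9 and 72.1 in the naive libraries. The ranges of its states overlapped.

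The remaining 7 of the 10 strongest had mean percentiles of 57.1 to 70.4. They were chr11:9365436-9368980, chr9:97139529-97144289, chr12:52600497-52602992, chr11:9209739-9211488, chr9:97093065-97098683, chr1:199679688-199683487 and chr11:9205279-9208570. Of the 10, 4 lay on chromosome 11 between 9205279 and 9368980 and 2 on chromosome 9 within 50 kb of each other.

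Memory and naive CD8+ cells were compared next, since the choice of regions treated the states alike. Although all of these regions were open in both states, many were stronger in memory cells. Of the 262 CD8 lineage regions tested, 98 (37.4%) were higher in memory than in naive cells and 24 (9.16%) were lower, with limma and Benjamini-Hochberg adjustment over all 25732 ranked regions at a threshold of 0.05. Over all ranked regions 12.6% were called higher and 12.4% lower. The median difference, memory minus naive, was 7.26 percentile points over the CD8 lineage regions and -0.58 over all ranked regions. Higher calls were thus a larger share of CD8 lineage regions than of all ranked regions, while lower calls were a smaller share. This fit counts the 4 libraries of a state as independent, although each of the 2 animals gave libraries both after and before treatment. The SEs and SDs given below rest on the same libraries. Neither this fit nor the one with the animal as a block models a difference between states that varies between animals.

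All 4 memory percentiles lay above all 4 naive percentiles in 106 CD8 lineage regions (40.5%), against 15.6% of all ranked regions, and below them in 31 (11.8%), against 17.7%. Taken animal by animal, 164 of the 262 were higher in memory cells in both animals, 57 were lower in both and 41 differed in direction. The median difference was 8.46 percentile points in animal 2 and 6.46 in animal 1. All 98 higher and all 24 lower calls had the same direction in both animals. The calls were made from these same libraries, so this agreement is not separate support for them. With the animal as a block, 42.4% were called higher and 11.8% lower, against 16.2% and 17.1% of all ranked regions. The count of lower calls fell when some single libraries were left out. It was 14 (5.34%) without the naive library of animal 1 after treatment and 13 (4.96%) without the naive library of animal 2 before it. It was 15 (5.73%) without the naive library of animal 2 after it and 13 (4.96%) without the memory library of animal 2 after it. Lower calls over all ranked regions fell too, to 7.75%, 8.62%, 6.77% and 8.58% in the same order. With the area score taken per base of peak, 47 (17.9%) were higher and 8 (3.05%) lower, against 4.35% and 4.06% of all ranked regions.

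Higher calls were the larger share in weak and in strong regions. Among CD8 lineage regions with a mean percentile below 25, 51 of 165 (30.9%) were higher in memory cells, against 10.6% of all ranked regions of that strength. Among those at 25 or more it was 47 of 97 (48.5%), against 13.3%. Lower calls made up 6.67% of the weaker regions, against 11.1% of all ranked regions of that strength, and 13.4% of the stronger ones, against 12.8%. Lower calls were thus the smaller share below a mean percentile of 25 and not above it. Peaks in CD8 lineage regions were also wider in memory cells, with a median of 1041 bp in memory and 841 bp in naive libraries, against 1674 and 1510 bp over all ranked regions. The part of peak width in the ranks was not tested beyond the per-base counts given above.

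**Figure D2:**
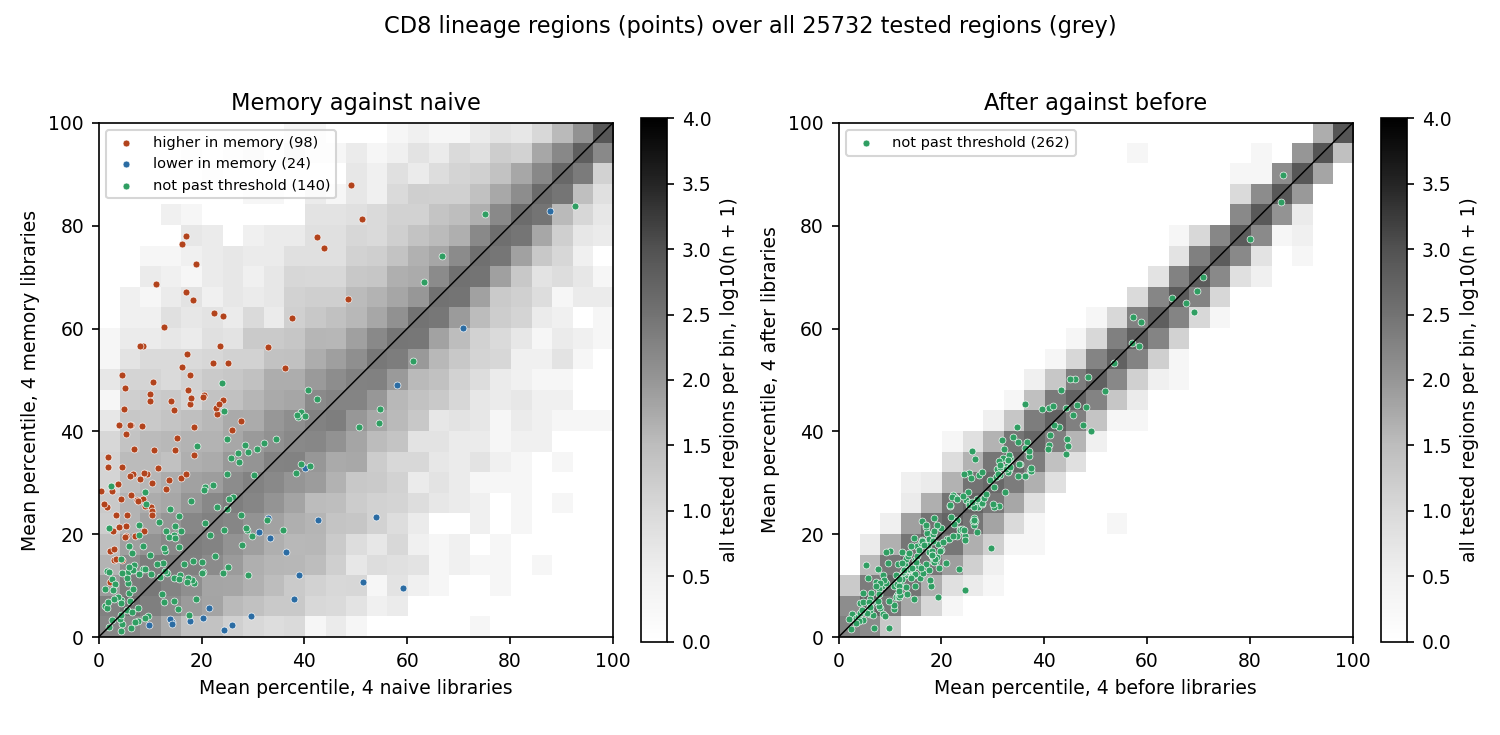
Mean percentile of 262 CD8 lineage regions (points) over the number of all 25732 ranked regions in each bin (grey, log10 scale). Left, 4 memory libraries (vertical axis) against 4 naive libraries (horizontal axis), with 98 regions higher in memory, 24 lower and 140 not past the threshold; right, 4 libraries after (vertical axis) against 4 before treatment (horizontal axis), where none passed the threshold and the points lie along the diagonal.

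The largest differences towards memory joined strong signals in memory cells to weak ones in naive cells. The region chr13:22425508-22430162 had percentiles of 84.5, 81.1, 63.7 and 82.9 in the memory libraries and 34.9, 0.126, 33.1 and 0.107 in the naive libraries. Its naive values fall into a higher pair from animal 1 and a pair from animal 2 at the bottom of the ranking, and all lay below the memory values. The difference was 61.0 percentile points (SE 10.2, limma adjusted p = 0.00705).

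The next region, chr19:10268938-10274383, had 82.2, 74.1, 66.4 and 83.5 in the memory libraries and 20.5, 1.94, 40.6 and 1.86 in the naive libraries, and again animal 2 had the lowest naive values. Memory cells were 60.3 percentile points higher (SE 9.28, limma adjusted p = 0.00525). Both animals had low naive values at chr16:3576278-3579749, with 64.5, 64.5, 66.9 and 79.0 in the memory libraries and 12.1, 1.44, 13.1 and 17.6 in the naive libraries. The difference there was 57.7 points (SE 3.74, limma adjusted p = 0.000464).

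At chr6:146355340-146358658 the percentiles were 75.3, 65.6, 72.9 and 76.7 in the memory libraries and 34.2, 5.49, 29.8 and 5.92 in the naive libraries, a difference of 53.8 points (SE 7.72, limma adjusted p = 0.00412). It lay within 50 kb of 6 regions that were open in memory CD8+ cells alone. The fifth, chr12:78436104-78439314, had 79.1, 66.1, 62.6 and 60.5 in the memory libraries and 32.3, 0.293, 34.7 and 0.422 in the naive libraries (difference 50.1, SE 9.61, limma adjusted p = 0.0115). Its adjusted p was 0.0525 with normal scores of the ranks in place of percentiles. With the area score per base, the differences at these 5 regions were 38.4, 27.2, 36.3, 37.6 and 43.8, in the order given, and all 5 passed the threshold.

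The pairs from animal 2 and animal 1 thus stood apart in the naive libraries of 4 of these 5 regions. Over the 98 regions called higher in memory, the median naive percentile was 4.22 in animal 2 and 13.3 in animal 1 after treatment, and 5.53 in animal 2 and 15.998 in animal 1 before it. In 66 of the 98 (67.3%) the naive value of animal 2 lay below that of animal 1 at both times, against 45.8% of all 3255 ranked regions called higher in memory. The memory medians of the 98 were closer together, from 37.5 to 41.3 over the 4 libraries. The naive CD8+ libraries also differed in how many of the 534 CD4 lineage regions had a peak. There were 56 after and 60 before treatment in animal 2, against 5 and 2 in animal 1. The memory CD8+ libraries had 18 and 13 after treatment and 65 and 23 before it. The mirror rule limits these counts, and whether they bear on the naive values was not tested. Each animal was also fitted alone. In animal 2, 46.2% of the CD8 lineage regions were called higher, against 15.0% of all ranked regions, and 11.5% lower, against 15.1%. In animal 1, 27.5% were higher, against 9.49%, and 6.11% lower, against 7.83%. These are additive fits on 4 libraries that have only the times as repeats.

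A smaller set was weaker in memory cells. The region chr2:129802441-129807855, 5415 bp wide, had percentiles of 3.60, 10.9, 9.96 and 14.1 in the memory libraries and 51.9, 68.3, 49.7 and 67.1 in the naive libraries. Its groups did not overlap, with a difference of -49.6 (SE 5.25, limma adjusted p = 0.00149), but with the area score per base the difference was -2.37 (adjusted p = 0.789). At chr1:199741070-199743887 the values were 9.96, 25.8, 4.72 and 2.07 in the memory libraries and 53.8, 55.4, 41.2 and 55.5 in the naive libraries, a difference of -40.8 (SE 4.55, limma adjusted p = 0.00175) and of -20.8 per base (adjusted p = 0.0175). It lay 57.6 kb from chr1:199679688-199683487, one of the 10 strongest, which went the other way.

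There, the percentiles were 83.9, 77.7, 65.0 and 76.2 in the memory libraries and 52.0, 35.0, 53.0 and 35.2 in the naive libraries (difference 31.9, SE 5.60, limma adjusted p = 0.00837). So 2 CD8 lineage regions of one neighbourhood had opposite differences between the states, and both kept their call in every alternative tried.

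At chr16:62972522-62973989 the percentiles were 0.488, 7.81, 3.02 and 18.0 in the memory libraries and 39.4, 35.8, 40.5 and 36.4 in the naive libraries (difference -30.7, SE 3.85, limma adjusted p = 0.00262). At chr14:115709812-115711893 they were 16.6, 21.7, 26.3 and 29.1 in the memory libraries and 53.6, 54.5, 51.8 and 56.0 in the naive libraries (difference -30.5, SE 2.34, limma adjusted p = 0.000611), which fell short with the area score per base (adjusted p = 0.180). The fifth, chr3:132322602-132323718, had 25.7, 1.28, 4.87 and 16.6 in the memory libraries and 34.5, 41.1, 36.8 and 43.2 in the naive libraries (difference -26.8, SE 5.82, limma adjusted p = 0.0179). Its adjusted p was 0.0589 without the naive library of animal 2 before treatment and 0.0636 without the one after it.

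Some CD8 lineage regions had nearly the same rank in both states. The region chr11:106977360-106978983 had percentiles of 33.6, 22.5, 17.8 and 25.8 in the memory libraries and 33.2, 17.9, 28.9 and 19.7 in the naive libraries, with means of 24.9 in both. The regions chr9:66989119-66990155 and chr6:69015453-69016058 were weak throughout, with mean percentiles of 4.40 and 1.99 over the 8 libraries. Their memory means rest in large part on a single high library each. At the first, the memory library of animal 1 after treatment had 13.6, against a median of 1.17 in the other memory libraries. At the second, that of animal 2 before treatment had 6.86, against 0.538.

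CD8 lineage regions often lay close to one another. Of the 377, 95 (25.2%) had another within 50 kb, while 22.5% of CD4 lineage regions had another CD4 lineage region that near. Of all 55449 regions, 3.81% had a CD8 lineage region within 50 kb. The 95 formed 34 stretches of 5.29 to 129.1 kb, 14 of which held 3 or more of them and 55 in total. The 34 stretches also held 99 other regions. Of those, 85 were open in more CD8+ than CD4+ libraries, 1 in more CD4+ than CD8+ libraries and 13 in equally many, 12 of which were open in all 16. None was a CD4 lineage region, 18 were open in memory CD8+ cells alone and 3 in naive CD8+ cells alone. Among all 55449 regions, 24333 were open in all 16 libraries and 534 were CD4 lineage regions. There were 944 open in memory CD8+ cells alone and 212 in naive CD8+ cells alone. Regions open in more libraries of one lineage were not counted over all regions, so the 85, 1 and 13 have no comparison here. Neighbouring regions are not independent of each other, so no test was made over groups.

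Of the 12 groups of 3 or more with at least 2 tested regions, the mean differences all pointed to memory in 8, all to naive cells in 2 and both ways in 2. Of their 40 tested regions, 19 passed the threshold. Among all 262 tested CD8 lineage regions, 184 were higher on average in memory cells, 98 passed as higher and 24 as lower. Of the 74 with another CD8 lineage region within 50 kb, 41.9% were called higher and 9.46% lower. For the 188 without one, the shares were 35.6% and 9.04%, so calls differed little with grouping. The sign is less certain where regions did not pass: of 33 named regions of that kind, 15 changed sign in at least 1 alternative. The largest group, 8 regions on chromosome 11 from 9353139 to 9482204, had 7 tested regions, all higher on average in memory cells and 2 past the threshold. One was chr11:9358549-9362388, with 60.3, 45.8, 52.9 and 66.5 in the memory libraries and 22.5, 31.8, 37.2 and 40.0 in the naive libraries (difference 23.5, SE 4.67, limma adjusted p = 0.0132). The other was chr11:9417843-9419759, with 51.6, 41.0, 48.3 and 45.6 in the memory libraries and 31.4, 15.5, 25.9 and 8.16 in the naive libraries (difference 26.4, SE 5.41, limma adjusted p = 0.0146). The call at the second was lost without the memory library of animal 1 after treatment (adjusted p = 0.0558), and its difference was 32.1 with the area score per base (0.0639). At the first, the difference was 13.8 with the summit −log10 p (0.181) and 10.2 with the area score per base (0.397), and the call was also lost when both naive libraries of animal 1 were left out (0.0513). The strongest region of the group, chr11:9353139-9357692, described above, had an adjusted p of 0.141, and of 0.045 with the animal as a block.

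Another group of 3 lay 119.02 kb away on the same chromosome, from 9205279 to 9234121, and was mixed. Within it, chr11:9205279-9208570 had 73.2, 58.2, 61.6 and 69.9 in the memory libraries and 49.6, 47.8, 54.5 and 42.5 in the naive libraries. Its neighbour chr11:9209739-9211488, which begins 1.17 kb further on, had 65.1, 59.4, 59.7 and 56.4 in the memory libraries and 73.5, 66.2, 72.2 and 71.3 in the naive libraries. Neither pair of groups overlapped, and the directions were opposite. The differences were 17.1 (SE 4.39, limma adjusted p = 0.0317) and -10.6 (SE 2.35, limma adjusted p = 0.0190). Both calls were lost when some single libraries were left out. The first was lost without the memory or naive library of animal 1 after treatment (0.0857 and 0.07705), without the naive library of animal 2 after it (0.0941) and without the memory or naive library of animal 2 before it (0.0840 and 0.0861). The second was lost without the naive library of animal 1 after or before treatment (0.0593 and 0.0566), the memory library of animal 2 after it (0.05905) and the naive library of animal 2 before it (0.0526). The first was also lost with the summit −log10 p (0.0571) and the second with the area score per base (0.0697).

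On chromosome 9, 5 regions spanned 97064455 to 97144289. Of the 4 tested, all were on the memory side and 3 were past the threshold. At chr9:97139529-97144289 the values were 88.8, 86.5, 87.5 and 88.9 in the memory libraries and 54.4, 39.9, 60.0 and 42.1 in the naive libraries (difference 38.8, SE 4.66, limma adjusted p = 0.00224). At chr9:97093065-97098683 they were 81.9, 79.4, 64.3 and 85.6 in the memory libraries and 50.4, 33.3, 49.5 and 36.2 in the naive libraries (difference 35.4, SE 6.11, limma adjusted p = 0.00793), against 13.6 (adjusted p = 0.0563) with the summit −log10 p. The third, chr9:97075789-97077049, was 20.3 points higher (SE 3.47, limma adjusted p = 0.00761), with means of 43.3 ± 3.47 in memory and 23.0 ± 5.12 in naive libraries (SD, n = 4 each). This stretch of 79.8 kb thus held 3 regions that were stronger in memory cells.

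On chromosome 16, a group of 3 from 32223235 to 32250580 had 2 tested regions, both higher in memory cells. The wider difference was at chr16:32248254-32250580, with 64.5, 62.8, 55.4 and 58.2 in the memory libraries and 27.5, 0.837, 21.4 and 0.795 in the naive libraries (difference 47.6, SE 6.82, limma adjusted p = 0.00407). A second group on that chromosome, 4 regions from 62965446 to 62973989, was mixed within 8.54 kb. It ended in chr16:62972522-62973989, lower in memory cells as given above. It began with chr16:62965446-62967482, which had 38.2, 38.5, 35.7 and 42.1 in the memory libraries and 22.3, 8.19, 28.2 and 2.06 in the naive libraries. The difference at that first region was 23.5 (SE 6.15, limma adjusted p = 0.0340) and was lost without the memory library of animal 1 after treatment (0.0950) or before it (0.0586), that of animal 2 after it (0.0880) or before it (0.0871), and the naive library of animal 2 after it (0.106). With the area score per base it was 9.76 (0.293).

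Groups on the naive side were those on chromosomes 10 and 13. All 4 regions from 24934230 to 24966869 on chromosome 10 were lower on average in memory cells. The largest difference of the 4 was at chr10:24964473-24966869, with 1.23, 3.69, 0.115 and 0.154 in the memory libraries and 28.4, 32.6, 14.2 and 22.5 in the naive libraries (difference -23.1, SE 2.55, limma adjusted p = 0.00169). With the area score per base that difference was -5.16 (adjusted p = 0.392), and with the summit −log10 p it was -12.2 (0.0126). On chromosome 13, the group of 6 from 19023326 to 19118047 held the second strongest region of the set. All 3 tested regions were on the naive side there. The difference at chr13:19023326-19027550 was -4.87 (SE 1.14, limma adjusted p = 0.0228). That call was lost without the memory library of animal 1 after treatment (0.0805) or before it (0.0502), that of animal 2 after it (0.0531) or before it (0.0550), and the naive library of animal 2 before it (0.07155). With the summit −log10 p the difference was -2.98 (0.658), and with the area score per base -2.75 (0.808).

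Of the remaining groups with a region past the threshold, that on chromosome 7 from 73357851 to 73398328 had 2 of 3 tested regions higher in memory cells. At chr7:73376229-73377376 the means were 26.8 ± 3.93 in memory and 4.33 ± 4.58 in naive libraries (SD, n = 4 each), a difference of 22.5 (SE 3.16, limma adjusted p = 0.00381). The group on chromosome 9 from 67173691 to 67225614 likewise had 2 of 3 higher. Groups on chromosomes 1 (13148642 to 13201325) and 3 (78359147 to 78387657) had 1 each, of 1 and 3 tested. Those on chromosomes 13 (46554545 to 46595648) and 20 (44826823 to 44875623) had none past the threshold of 2 tested each. Several of these calls were lost when a library was left out or the measure was changed. The one on chromosome 1, chr1:13198518-13201325, was lost without the memory library of animal 1 after treatment (limma adjusted p = 0.0516) and without the naive library of animal 2 after it (0.05003). The one on chromosome 3, chr3:78359147-78362598, was lost without any 1 of the 8 libraries (0.0674 to 0.124) other than the naive libraries of animal 1. Its difference was 40.7 with all 8 libraries and 31.0 to 44.9 in the fits that lost the call, so it did not always shrink. A fit without a library also has fewer libraries from which to estimate the spread. At chr9:67173691-67175489 the call was lost without any 1 (0.0615 to 0.143) other than the naive library of animal 1 after treatment. With the area score per base, the differences at these 3 regions were 3.95 (adjusted p = 0.718), 24.6 (0.0861) and 17.1 (0.198), and that at chr3:78359147-78362598 was 17.7 (0.112) with the summit −log10 p. With the animal as a block, 4 further regions of the groups of 3 or more passed. They were chr11:9353139-9357692, given above, chr3:78364444-78366322 (limma adjusted p = 0.0327), chr13:19048092-19049796 (0.0104) and chr20:44844718-44846389 (0.00341).

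**Figure D3:**
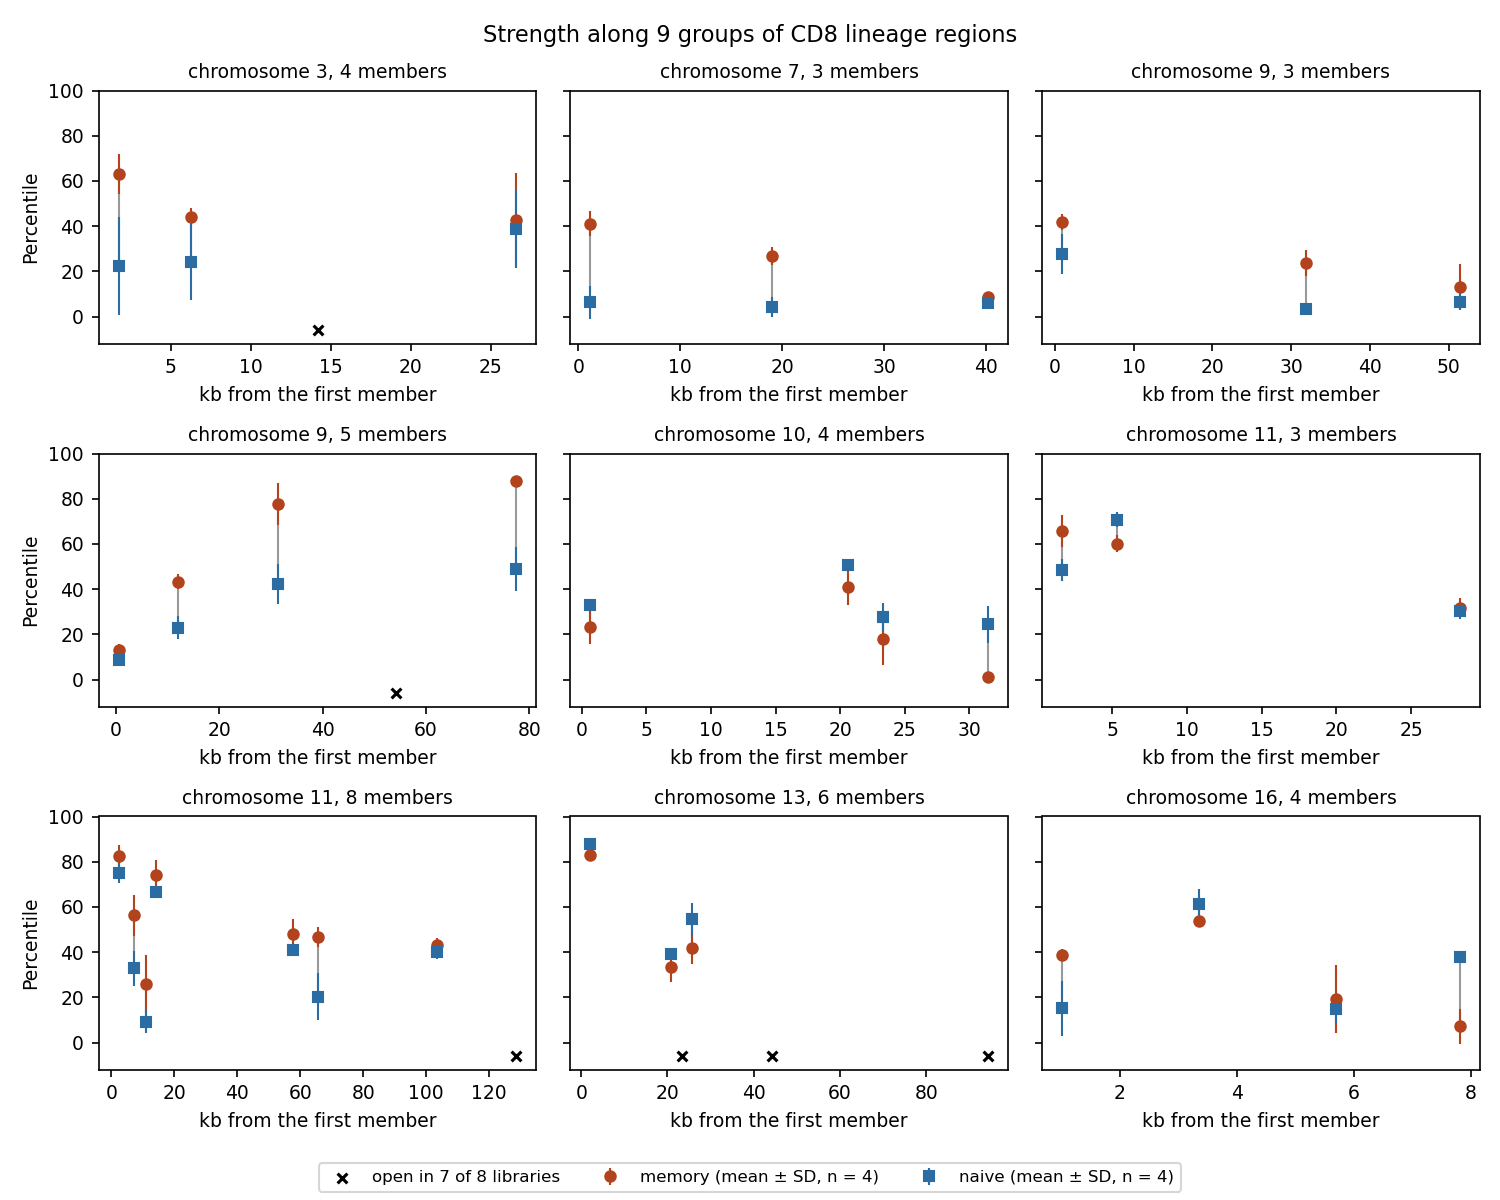
Mean percentile with SD (vertical axis, n = 4 libraries per state) of the CD8 lineage regions in the 9 groups with at least 3 tested regions, against distance from the group's first region in kb (horizontal axis), for memory (red circles) and naive cells (blue squares); crosses mark regions open in 7 of 8 CD8+ libraries, which were not tested. The groups on chromosomes 10 and 13 have the naive mean above the memory mean at each tested region, and the group of 8 on chromosome 11 has the memory mean above it at each.

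The wider surroundings of CD8 lineage regions also held regions of one CD8+ state. Of the 377, 104 (27.6%) had a region open in memory CD8+ cells alone within 50 kb, against 3.37% of CD4 lineage regions and 8.71% of all regions. For regions open in naive CD8+ cells alone it was 7.16%, against 0.562% and 1.91%. CD4 lineage regions in turn had a region open in memory CD4+ cells alone within 50 kb in 8.61% of cases, against 1.88% of all regions, and one open in naive CD4+ cells alone in 2.43%, against 1.183%, so each lineage had more neighbours from its own states. A CD4 lineage region lay within 50 kb of 5 of them (1.33%), against 5.59% of all regions. Regions open in all 16 libraries were near 73.7% of CD8 lineage regions, at a median distance of 16.7 kb, against 81.6% and 12.3 kb for CD4 lineage regions and 82.3% and 11.2 kb for all regions. No test was made of these shares, since regions in one stretch are not independent.

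Of the 76 tested CD8 lineage regions with a memory CD8+ region within 50 kb, 37 (48.7%) were higher in memory cells and 5 lower. Of the 186 without one, 61 (32.8%) were higher and 19 lower. Of all ranked regions, 33.3% of those with such a neighbour were higher and 5.38% lower, and 11.0% of those without one were higher and 13.0% lower. A larger share of higher calls near memory CD8+ regions was thus found among all ranked regions too.

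**Figure D4:**
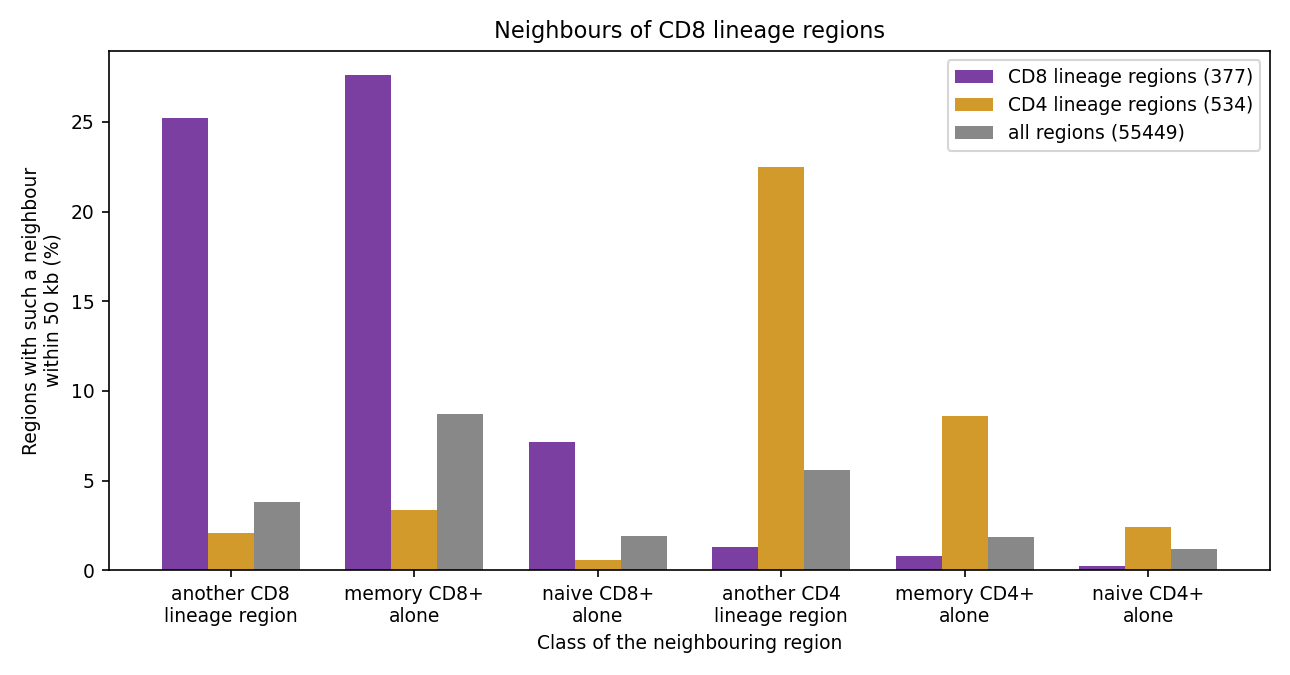
Share of regions (vertical axis, percent) with a neighbour of each class (horizontal axis) within 50 kb, for 377 CD8 lineage regions (purple), 534 CD4 lineage regions (yellow) and all 55449 regions (grey). CD8 lineage regions have a memory CD8+ neighbour in 27.6% of cases, and a CD4 lineage neighbour in 1.33%.

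Chromosomes carried different densities. There were 12.2 CD8 lineage regions per 1000 regions on chromosome 12, 10.6 on chromosome 13 and 3.01 on chromosome 15, against 6.80 over the genome. X had 1 of the 377, while it held 2.68% of all regions. That one, chrX:132751763-132752769, was open in 7 CD8+ libraries and 1 CD4+ library and had 7 CD4 lineage regions within 50 kb.

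Of the CD8 lineage regions open in 7 CD8+ libraries, 84 without and 31 with a CD4+ peak, 76 (66.1%) lacked a peak in a naive library and 39 (33.9%) in a memory library. Of the other regions open in 7 of 8, 974 of 1983 (49.1%) lacked it in a naive library. The naive library of animal 2 after treatment accounted for 35 of the CD8 lineage regions (30.4%), against 126 (6.35%) of the others. The naive library of animal 1 before treatment had the shortest list of the 16, and it accounted for 24 of the CD8 lineage regions (20.9%), against 524 (26.4%) of the others. The library most often without a peak in CD8 lineage regions thus had a list of 41150 peaks, among the longer ones, and its own median percentile for the tested regions was the lowest of the 8.

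**Figure D5:**
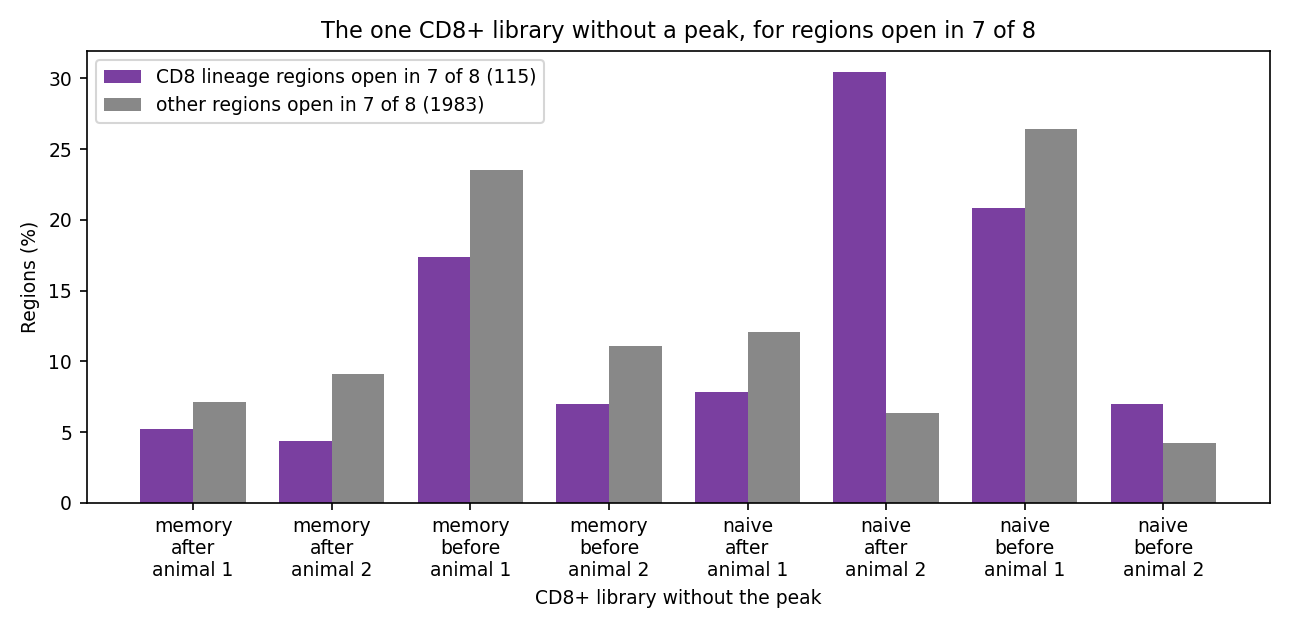
Share of regions open in 7 of 8 CD8+ libraries (vertical axis, percent) that lacked a peak in each library (horizontal axis), for CD8 lineage regions (purple) and 1983 other regions (grey). The naive library of animal 2 after treatment has 30.4% of the CD8 lineage regions and 6.35% of the others.

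The CD4+ peaks in CD8 lineage regions were weak, which a rule of at most 1 CD4+ library favours. Their strength is therefore given as a description only, and lone CD4+ peaks of other regions were not measured for comparison. In the 87 regions open in 1 CD4+ library, that peak had a median percentile of 7.70 within its own list (range 0.0978 to 41.1), while the CD8+ peaks of the same regions had a median of 31.9. The CD4+ peak was the weaker in 83 of the 87. Such peaks were most common in the memory library of animal 1 after treatment, which held 27 of the 87 (31.0%), against 770 of 4001 (19.2%) among other regions open in 1 CD4+ library. It was also the longest list, with 42034 peaks.

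Median distances between summits of the 2 states were small, but larger than over all ranked regions. The median distance between summits in CD8 lineage regions was 31.5 bp between libraries of different states and 23.3 bp between libraries of one state, against 16 and 14 bp over all ranked regions. A single peak made up the region in every CD8+ list in 215 of the 262 (82.1%), against 79.3% of all ranked regions. In regions narrower than 2 kb the distances between states were 29.5 bp for 193 CD8 lineage regions and 11 bp for 11147 others. Within one state they were 20.5 and 10.5 bp.

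No CD8 lineage region passed the threshold between CD8+ libraries after and before treatment with 2-hydroxypropyl-beta-cyclodextrin. Of all 25732 ranked regions, 0% were called in either direction by limma, with a lowest adjusted p of 1. At an unadjusted p under 0.05 there were 6 CD8 lineage regions (2.29%), against 584 (2.27%) of all. All 4 libraries after treatment lay above all 4 before it in none of the 262, against 0.564% of all ranked regions, and below them in 2 (0.763%), against 0.358%. The median difference over the 262 was -0.53 percentile points, and the median absolute difference was 2.50 in CD8 lineage regions and 1.31 in all. A change within the spread between these libraries could not be detected with 2 animals.

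The lowest unadjusted p among regions lower after treatment was at chr7:134816007-134818030. It had percentiles of 7.79 and 15.8 in memory and 5.47 and 7.54 in naive libraries after treatment, against 28.6 and 30.0 in memory and 17.6 and 21.8 in naive libraries before it. The difference was -15.4 (SE 2.53, limma, unadjusted p = 0.000599, adjusted p = 1). The 4 libraries after treatment lay below the 4 before it. The next were chr13:46594814-46595648, with a difference of -11.6, and chr2:9998554-10000155, with -12.2. Among regions with higher values after treatment the first were chr10:24964473-24966869 with 7.22, chr10:24934230-24935560 with 7.31 and chr3:80239182-80240304 with 6.77. None of these 6 passed the threshold.

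Whether the change over treatment differed between memory and naive cells was tested as an interaction. No region passed it, again with 0% called and a lowest adjusted p of 1. At an unadjusted p under 0.05 there was 1 CD8 lineage region, against 355 (1.38%) of all. That one, chr2:168559742-168560674, had 16.2 and 7.50 in memory libraries after treatment against 3.58 and 1.31 before it, and 3.27 and 0.301 in naive libraries after it against 10.4 and 3.51 before it (interaction 14.6, SE 5.63, limma, unadjusted p = 0.0376, adjusted p = 1).

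The animals differed at 6 CD8 lineage regions. In a fit with state, time and animal, 3 were higher in animal 2 (1.15%), against 1.94% of all ranked regions, and 3 were lower (1.15%), against 1.6%. The largest was chr3:78383854-78387657, with 28.9 and 26.6 after and 27.7 and 21.3 before treatment in memory and naive cells of animal 2, against 72.1 and 53.5 after and 42.5 and 53.7 before it in animal 1 (difference -29.3, SE 4.42, limma adjusted p = 0.0233). At chr1:63001523-63004061 animal 2 was higher, with 43.6 and 33.0 after and 33.1 and 39.5 before treatment, against 9.91 and 20.1 after and 8.04 and 18.4 before it in animal 1 (difference 23.2, SE 3.45, limma adjusted p = 0.0226). The other two higher in animal 2 were chr12:120508597-120509856 (14.6) and chr1:157071074-157072159 (11.2). The others lower were chr1:153660043-153661161 (-22.0) and chr18:72488993-72490524 (-19.3). With 1 animal on each side, the p-values cover only how far libraries of the same animal spread.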

How the data were processed

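Each of the 16 libraries has 1 deposited peak list. The submitters' processing notes name cutadapt 1.18 and Bowtie2 2.3.4.1, the peak caller Genrich 0.6 and the genome build rheMac10. How these were set, and whether reads were shifted for the transposase or duplicates removed, is not given in the sources here. The authors deposited for each peak an area score, at least 200 in every list, and the −log10 p at its summit, from 2.42 to 16.3. Titles, which give animal 2 the same name in all 4 populations, decided which animal a library came from. The file names carry other numbers for it, and if those stood for other animals, the block and the contrast between animals would not hold.

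Peaks were merged and ranked with Python 3.11.15. Summed area scores were turned into percentiles within each CD8+ library over the same 25732 regions, so that lists were compared by rank only. limma 3.58.1 in R 4.3.3 (trended variance) fitted state, time and their interaction to 8 CD8+ libraries, with Benjamini-Hochberg adjustment over all regions and a threshold of 0.05. The script was tested on simulated data. Same-numbered libraries come from the same animal, and their deviations from the group means correlated at 0.379 to 0.582 over regions, so the animal as a block was the paired fit. The regions and lists were chosen with earlier results of these data known. Regions were named by rule: the 10 strongest open in 8 CD8+ and 0 CD4+ libraries, groups of at least 3 within 50 kb, up to 5 per contrast and direction past the threshold (3 by unadjusted p where none passed), and the 3 most alike between states. Gene, marker and motif analyses were not made here, for want of an annotation and genome of this build.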

Additional observations from a re-analysis of the deposited data

Results flagged for a closer look

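In 8 of 138 sets of 4 libraries of one state, 1 library stood apart from the other 3 by more than Dixon's 95% critical value for 4 samples, which chance gives in about 1 of 20 sets. In memory cells, the library of animal 2 before treatment was the highest at 3 regions, with a percentile of 6.86 at chr6:69015453-69016058, 42.6 at chr16:32223235-32225567 and 56.3 at chr16:62967631-62969980. The medians of the other memory libraries there were 0.538, 34.5 and 52.9. The memory library of animal 1 before treatment was the lowest at chr13:19043419-19044904, with 23.7 against a median of 36.6, and at chr13:22425508-22430162, with 63.7 against 82.9. The memory library of animal 1 after treatment was the highest at chr9:66989119-66990155, with 13.6 against 1.17. In naive cells, the library of animal 1 before treatment was the lowest at chr1:199741070-199743887, with 41.2 against 55.4, and that of animal 2 after treatment was the lowest at chr9:67204967-67206179, with 0.227 against 4.22.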

How the results depend on the processing

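The number of CD8 lineage regions was 206 when they had to be open in all 8 CD8+ and no CD4+ libraries and 822 at 6 and 2. It was 398 to 505 when a library was left out. All 377 were found again in each of those runs, so 6 open CD8+ libraries were enough without a CD8+ library. The rule was thus eased there and the count could not fall. A stricter summit threshold gave 306, of which 154 overlapped the regions described. Between states, 6450 ranked regions were called in all, 8560 with the animal as a replicate block, 4044 with the summit −log10 p, 2164 with the area score per base and 3929 to 6107 without 1 library, the lowest without the memory library of animal 1 after treatment and 3951 without the naive one of animal 2 after it. CD8 lineage regions higher in memory numbered 98, with 47 per base, 62 of 174 with lists of equal length and 70 to 102 without 1 library. Those lower numbered 24, with 8, 15 and 13 to 29. The higher share exceeded that of all ranked regions under every alternative (17.9% against 4.35% per base). After against before treatment, all ranked regions gave 0 to 3 calls without 1 library (3 without the naive library of animal 2 before treatment, 1 without the one after it), the interaction 0 to 2 (2 and 1 in the same order), and CD8 lineage regions gave 0 in each. The difference after minus before at chr10:24964473-24966869 turned to -1.04 with the summit −log10 p and -0.783 per base. The cause of these changes was not tested. Of 34 named regions called between states, 12 kept call and direction in every alternative, 22 lost the call in at least 1 and none reversed. The alternatives that left out both naive libraries of animal 1 or used 1 animal alone were chosen after seeing the data. Unknown depth and 2 animals limit all of these values.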
